A study of Homo sapiens with 18 samples.

Results

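RNA of cells given back mutant actin was compared with RNA of cells given back wild-type actin. The tested cells were HCT-116, a line from a human colorectal carcinoma, in which actin was knocked out and the H73A mutant of actin was then stably expressed (labelled ACTB-mut). They were set against the same Actin KO cells stably expressing wild-type actin (labelled ACTB-WT). Each side had 3 libraries, chosen by their labels, so that 6 of the 18 libraries in the series entered the comparison and 13882 genes were tested in it. The 3 libraries of Actin KO cells with an empty construct were fitted with them, shared the spread estimate, and are given as the level from which both sides were made. All 9 libraries thus carry the actin knockout, and all cells were grown in the same medium with serum. Poly(A) RNA was sequenced. Neither the promoter of the constructs nor the number of clones behind each line is given in the labels. Nothing there says that replicates came from separate cultures, and the spread that the p-values rest on may be technical.

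Actin is the protein of the thin filaments that shape the cell, carry myosin II and anchor adhesions. Histidine 73 of actin is methylated by SETD3, and the H73A form has an alanine in its place and cannot be methylated there. Free actin monomers hold the coactivator MRTF in the cytoplasm. When monomers are drawn into filaments, MRTF enters the nucleus and works with SRF on genes of the contractile and adhesive machinery, such as TAGLN, MYL9 and FLNA. Actin is also a subunit of the BAF chromatin remodelling complex, whose ATPase is SMARCA4. In the reference genome the codon of histidine 73 lies in exon 3 of ACTB on the minus strand of GRCh38, at chr7:5529305-5529307. The stretch from codon 65 to codon 81 is shown because it holds the residue that the H73A form replaces. It is the reference sequence from GENCODE release 29, with the histidine codon in capitals. The mutant actin was expressed from a construct, whose sequence was not checked.
ACTB codons 65 to 81: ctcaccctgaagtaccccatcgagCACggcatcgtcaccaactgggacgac

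The deposited values are counts per gene, so they hold no base of that codon and the H73A change itself was not checked here. ACTB (beta-actin) RNA had 47.1, 32.04 and 43 CPM in the ACTB-mut libraries, against 31.02, 29.2 and 23.2 CPM in the ACTB-WT libraries, where CPM are counts per 1000000 counts of a library after TMM scaling. Actin KO cells had 16.7, 24.9 and 14.9 CPM. The ACTB-mut libraries were the highest, and those of ACTB-WT and Actin KO overlapped, but the difference between ACTB-mut and ACTB-WT did not pass the test (log2 change 0.55 ± 0.28 (SE), adjusted p = 0.463). In the SETD3 CT control libraries of the same line, scaled in a table of their own, ACTB stood at 1189, 889 and 1296 CPM. ACTB RNA counted in both groups labelled as over-expressing actin was thus far below that of the control cells. Whether RNA of the add-back constructs was counted under ACTB is not given in the sources used here, so these values cannot be read as the level of the add-back actin. ACTB-mut and ACTB-WT therefore stand below for the libraries labelled so, and each direction rests on those labels.

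ACTG1 (gamma-actin, the other cytoplasmic actin) had 6325, 7122 and 5908 CPM in the ACTB-mut libraries, against 8592, 7749 and 7886 CPM in the ACTB-WT libraries. All 3 ACTB-mut values were below all ACTB-WT values, with a log2 change of -0.32 ± 0.08 that did not pass the threshold (adjusted p = 0.0826). SETD3, the actin methyltransferase, had 29.9, 32.7 and 32.98 CPM in the ACTB-mut libraries, against 9.74, 27.7 and 24.9 CPM in the ACTB-WT libraries, without a call (adjusted p = 0.540). SMARCA4 had 157, 184 and 126 CPM in the ACTB-mut libraries, against 219.5, 226 and 180.0 CPM in the ACTB-WT libraries, and its groups overlapped with an adjusted p of 0.287.

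Total counts were 7919495 to 11271910 in the ACTB-mut libraries, 5144386 to 7601018 in the ACTB-WT libraries and 7512656 to 8774607 in the Actin KO libraries. The ACTB-mut libraries were thus the deeper. The first principal component, with 25.7% of the variance, put ACTB-mut at -13.5 to -12.4, ACTB-WT at 10.1 to 15.4 and Actin KO between them. Variation between replicates beyond counting noise (biological coefficient of variation in the joint fit) had a median of 15.4% for genes above 100 CPM. It was 88.9% at 1 to 5 CPM, where counting noise adds to it and small changes were not detectable. The epithelial identity of the line showed in EPCAM (569 to 685 CPM in ACTB-mut), KRT8, KRT18 and KRT19. VIL1, CEACAM5 and CDH17, other markers of colorectal epithelium, were at 1.05 CPM or less in each of the 6 libraries. Of the 14 blood cell markers 9 had no count in the 6 libraries, and of the 11 fibroblast markers COL1A2, COL3A1, DCN and LUM had none, while COL6A3 had 8407 to 11340 CPM in ACTB-mut. None of the fibroblast, blood, neural or liver and kidney line markers was called. These are bulk libraries, in which fewer cells with a transcript and less transcript per cell cannot be told apart.

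H73A cells differed from wild-type add-back cells in 172 genes, 88 higher and 84 lower in ACTB-mut. The most pronounced rise among well-expressed genes was that of SPARC, a secreted matrix-binding glycoprotein, and the most pronounced fall that of LY6D, a GPI-anchored surface protein of epithelia. SLC2A1, HGS, SOX4 and BMP4 fell, and PRDX1, CAV1 and the mitochondrial MT-CO1 rose. A call is a Benjamini-Hochberg adjusted p below 0.05 in edgeR's quasi-likelihood test over all 13882 genes, so 1.24% of tested genes were called, 0.634% as higher and 0.605% as lower. The libraries of the 2 groups did not overlap in any of the 172, against 18.1% of all tested genes. Of the called genes, 95 differed by at least 2-fold, 60 of them higher and 35 lower. The median log2 change was 1.28 among genes called higher, -0.87 among those called lower and 0.02 over all tested genes. An unadjusted p below 0.05 was reached by 1666 genes.

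Single libraries weighed on these counts. Between 60 genes (without ACTB-WT replicate 2) and 129 genes (without ACTB-WT replicate 3) were called when 1 of the 6 libraries was left out. Without ACTB-mut replicate 1 there were 75, and 83 without ACTB-mut replicate 3 or without ACTB-WT replicate 1. Of the 172 genes, 45 were called in all 6 of these fits. The log2 change also ran with GC content across genes (Pearson's r = -0.265 over 3828 genes above 32 CPM, as a description), and with offsets for GC content and transcript length 125 genes were called, 76 higher and 49 lower, 108 of them among the 172. Of the genes named below, MYL9, MYH9, FLNA, LAMA5, COL18A1, S100A4, RPL27, EIF3CL, NQO1, GCLM, DDIT4, MT-CO3, SMAD6, LGALS3BP, PTTG1, MCM7 and GART were not called with these offsets. No called gene changed direction in any of the 20 other settings.

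**Figure D1:**
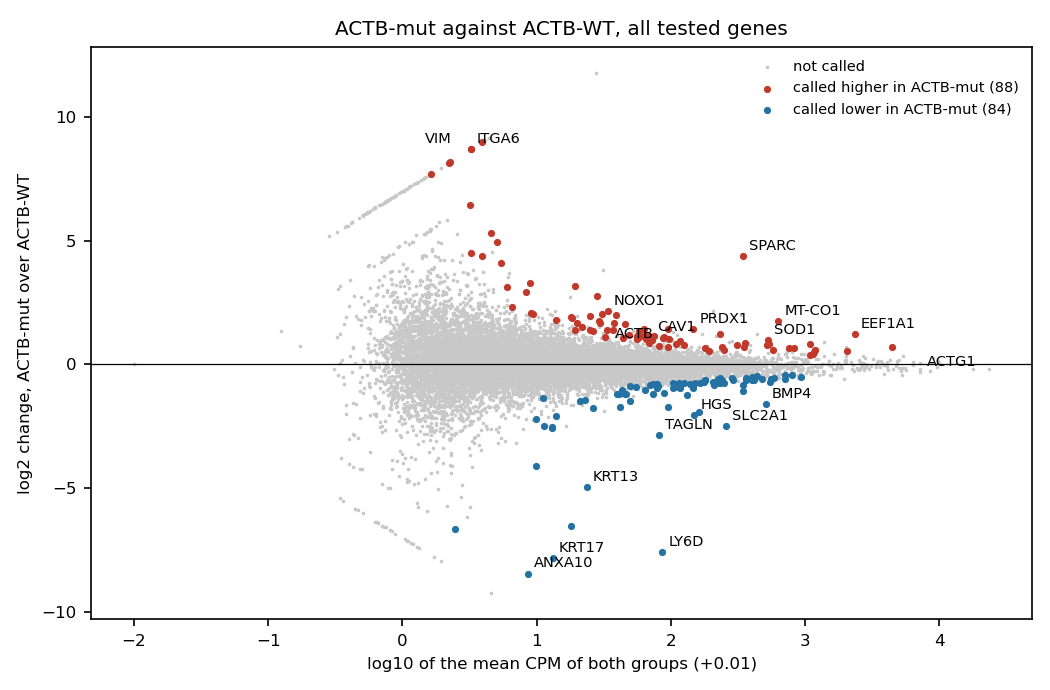
Each point is 1 of the 13882 tested genes, placed by its mean level in CPM (log10 axis) and its log2 change, ACTB-mut over ACTB-WT. The 88 genes called higher are red, the 84 called lower are blue and the rest grey, and SPARC, LY6D and SLC2A1 stand off the bulk of genes of their level.

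SPARC (GRCh38 chr5:151661096-151687165) had 693, 724 and 549.9 CPM in the ACTB-mut libraries, against 42.5, 27.01 and 24.4 CPM in the ACTB-WT libraries. Every ACTB-mut library was far above every ACTB-WT library, with a log2 change of 4.39 ± 0.22 (SE, n = 3 each, adjusted p = 1.99e-08). The Actin KO libraries lay between, at 242, 163 and 201 CPM. In the comparisons with Actin KO, which share its libraries, 0.922% of tested genes were called for ACTB-mut and 1.12% for ACTB-WT. SPARC was higher in ACTB-mut than in Actin KO (log2 change 1.70 ± 0.19, adjusted p = 0.000910) and lower in ACTB-WT than in Actin KO (log2 change -2.69 ± 0.21, adjusted p = 3.59e-06). The 250 bases before its start are shown because no other gene above 50 CPM rose as much. They are from RefSeq on GRCh38.p14, chr5:151686916-151687165, minus strand, 5′ to 3′, with a match to the TEAD motif GGAATG on the other strand in capitals, 17 bases before the start.
SPARC promoter: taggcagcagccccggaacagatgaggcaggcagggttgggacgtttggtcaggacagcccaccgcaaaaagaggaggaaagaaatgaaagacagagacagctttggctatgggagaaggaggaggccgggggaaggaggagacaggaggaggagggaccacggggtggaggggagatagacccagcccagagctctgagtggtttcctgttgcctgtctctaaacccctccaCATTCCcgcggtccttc

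NOXO1, the organiser subunit of a superoxide-producing NADPH oxidase, had 59.5, 57.7 and 49.1 CPM in the ACTB-mut libraries, against 11.3, 10.2 and 16.03 CPM in the ACTB-WT libraries. Its groups did not overlap (log2 change 2.15 ± 0.31, adjusted p = 0.00287). The adhesion GPCR ADGRF1 had 68.2, 56.8 and 47.3 CPM in the ACTB-mut libraries, against 22.3, 15.4 and 16.9 CPM in the ACTB-WT libraries, and TNS4, a tensin of focal adhesions, had 58.4, 65.9 and 81.8 CPM in the ACTB-mut libraries, against 15.3, 21.6 and 28.6 CPM in the ACTB-WT libraries. Both sets of groups were apart, with log2 changes of 1.66 ± 0.24 (adjusted p = 0.00298) and 1.65 ± 0.28 (adjusted p = 0.00920). SECTM1, a secreted and transmembrane protein, rose by a log2 change of 1.44 ± 0.20 and FAM3C, a secreted protein of the epithelial-mesenchymal transition, by 1.40 ± 0.24. For ADGRF1 the Actin KO level was 90.9, 95.6 and 63.7 CPM, for SECTM1 96.97, 89.5 and 108 CPM and for FAM3C 69.5, 65.3 and 61.5 CPM. In each of these 3 genes ACTB-WT was below Actin KO (adjusted p = 0.000162, 0.000732 and 0.00213), and ACTB-mut against Actin KO was not called.

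Several rises were between no or almost no counts in ACTB-WT and low levels in ACTB-mut. VIM (vimentin, the intermediate filament protein of mesenchymal cells, chr10:17228259-17237593) had 7.35, 1.80 and 10.3 CPM in the ACTB-mut libraries and no count in any ACTB-WT library. With a floor of 3 counts over the ACTB-WT group, VIM was at least 37.9-fold higher in ACTB-mut (adjusted p = 0.0122), and Actin KO had 6.63, 3.07 and 7.53 CPM. ITGA6, the integrin alpha chain of laminin receptors, had 3.15, 5.79 and 10.4 CPM in the ACTB-mut libraries and no count in ACTB-WT. It was at least 36.4-fold higher (adjusted p = 0.0219), and its Actin KO libraries spread from 0.799 to 12.9 CPM. AC010542.4, an unnamed locus on chromosome 16, had 6.47, 7.19 and 9.77 CPM against no count, at least 46.1-fold higher (adjusted p = 0.00370). PEG10, an imprinted gene derived from a retrotransposon, had 196 counts over ACTB-mut and 1 over ACTB-WT, a ratio of 122 with a 95% counting interval of 21.6 to 4830. LPAR1, a receptor for lysophosphatidic acid, had 2.10, 11.7 and 12.9 CPM in the ACTB-mut libraries, against 0, 0.403 and 0.174 CPM in the ACTB-WT libraries (log2 change 5.30 ± 0.99). APOBEC3G, a cytidine deaminase that restricts retroviruses, had 11.3, 8.98 and 8.88 CPM in the ACTB-mut libraries, against 0.994, 0 and 0 CPM in the ACTB-WT libraries (log2 change 4.94 ± 1.12). In each of these genes the 2 groups were apart, while the ACTB-mut libraries of VIM, ITGA6, PEG10 and LPAR1 differed widely among themselves. Against Actin KO, ACTB-WT was called lower for VIM, ITGA6, AC010542.4, PEG10 and LPAR1. Those calls held in 18, 11, 18, 8 and 14 of 19 other settings, in that order. ACTB-mut against Actin KO was not called for any of them, and APOBEC3G was called in neither comparison with Actin KO.

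The low-level calls of ACTB-mut over ACTB-WT leaned on single libraries. The call for VIM was lost without ACTB-WT replicate 2 (adjusted p = 0.0525), that for ITGA6 without ACTB-mut replicate 3 or ACTB-WT replicates 1, 2 or 3 (adjusted p 0.0569 to 0.0842) and that for PEG10 without ACTB-mut replicates 1 or 2 or ACTB-WT replicates 1, 2 or 3 (adjusted p 0.0501 to 0.118). LPAR1 was not called without ACTB-mut replicates 2 or 3 or ACTB-WT replicates 1 or 3 (adjusted p 0.0505 to 0.0689), nor APOBEC3G without ACTB-mut replicates 1, 2 or 3, ACTB-WT replicates 2 or 3 or Actin KO replicates 1 or 2 (adjusted p 0.0624 to 0.160). AC010542.4 was called in each of the 20 other settings.

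LY6D (chr8:142784880-142786592) had 0.962, 1.10 and 0.507 CPM in the ACTB-mut libraries, against 152, 186 and 176 CPM in the ACTB-WT libraries. The transcript was plentiful in each ACTB-WT library and close to absent in each ACTB-mut library, with a log2 change of -7.59 ± 0.29 (adjusted p = 5.43e-10). In Actin KO it was 3.45, 3.31 and 2.85 CPM, so that LY6D was high in ACTB-WT alone of the 3 groups (log2 change 5.74 ± 0.25 over Actin KO, adjusted p = 5.41e-09). At these low levels LY6D was also called lower in ACTB-mut than in Actin KO, a call that held in 16 of 19 other settings (log2 change -2.04 to -1.44). ANXA10, an annexin of gastric epithelium, had 1 count over the ACTB-mut libraries and 12.9, 21.1 and 17.8 CPM in the ACTB-WT libraries. The count ratio of ACTB-WT over ACTB-mut was 522 with a 95% counting interval of 93.0 to 20700 (adjusted p = 0.000627). It had 1 count or none in each Actin KO library as well, at 0, 0.123 and 0 CPM. These intervals and floors cover counting error only.

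KRT17, a keratin of basal and stressed epithelium, had 3 counts over ACTB-mut, against 11.9, 16.4 and 50.4 CPM in ACTB-WT. The count ratio of ACTB-WT over ACTB-mut was 253 with an interval of 86.0 to 1230 (adjusted p = 0.000430). Against Actin KO, KRT17 was called lower in ACTB-mut and higher in ACTB-WT. Those calls held in 8 and 15 of 19 other settings. KRT13, a keratin of stratified mucosa, had 3.41, 0.799 and 0 CPM in the ACTB-mut libraries, against 56.9, 47.3 and 33.8 CPM in the ACTB-WT libraries, a log2 change of -4.95 ± 0.88 (adjusted p = 0.0131). The groups did not overlap for either keratin, and ACTB-mut replicate 1 held most of the KRT13 counts of its group. FSTL4, a follistatin-like secreted protein, had 2.36, 0 and 0.761 CPM in the ACTB-mut libraries, against 16.1, 22.6 and 17.4 CPM in the ACTB-WT libraries (log2 change -4.11 ± 0.79). RPS3AP6 also fell (adjusted p = 0.0123), but it is a pseudogene of RPS3A and its reads cannot be told from those of its parent gene with certainty. The call for KRT13 was lost without ACTB-mut replicate 2 or ACTB-WT replicate 2 (adjusted p 0.0553 to 0.0661), that for FSTL4 without ACTB-mut replicate 3 or ACTB-WT replicate 2 (adjusted p 0.0685 to 0.0821) and that for RPS3AP6 without ACTB-WT replicates 2 or 3 (adjusted p 0.0525 to 0.0717).

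SLC2A1 (chr1:42925375-42959176), the basal glucose transporter GLUT1, had 64.7, 96.5 and 70.1 CPM in the ACTB-mut libraries, against 438, 437 and 438 CPM in the ACTB-WT libraries. The ACTB-WT libraries were nearly equal and every ACTB-mut library was far below them (log2 change -2.50 ± 0.18, adjusted p = 1.99e-06). Actin KO had 59.2, 81.5 and 86.8 CPM, and ACTB-WT alone was raised above that level (log2 change 2.53 ± 0.18, adjusted p = 1.35e-06). The RefSeq start of SLC2A1 also lies inside the bounds given. The 250 bases before it are shown beside those of SPARC as those of a gene that moved the other way in every setting. They are from chr1:42958869-42959118, minus strand, and hold none of the 4 motifs searched.
SLC2A1 promoter: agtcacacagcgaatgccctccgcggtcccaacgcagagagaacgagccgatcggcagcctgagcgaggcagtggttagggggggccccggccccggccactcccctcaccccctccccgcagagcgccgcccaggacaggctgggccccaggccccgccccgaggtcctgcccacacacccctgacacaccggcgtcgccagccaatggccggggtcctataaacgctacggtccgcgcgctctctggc

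HGS, a subunit of the ESCRT-0 complex that sorts ubiquitinated receptors on endosomes, had 50.1, 70.2 and 54.04 CPM in the ACTB-mut libraries, against 218, 277 and 226 CPM in the ACTB-WT libraries. The Actin KO libraries had 269, 264 and 329 CPM, so HGS was low in ACTB-mut alone (log2 change -2.05 ± 0.16 against ACTB-WT, adjusted p = 7.91e-06, and -2.31 ± 0.17 against Actin KO, adjusted p = 6.59e-06). EHMT2, a histone H3 lysine 9 methyltransferase, showed the same order, with 55.2, 31.4 and 45.4 CPM in the ACTB-mut libraries, against 145, 155 and 138 CPM in the ACTB-WT libraries and 136, 124 and 168 CPM in the Actin KO libraries (log2 change -1.73 ± 0.20, adjusted p = 0.000427). SOX4, a transcription factor of progenitor cells, had 57.5, 68.7 and 77.8 CPM in the ACTB-mut libraries, against 241, 238 and 300.3 CPM in the ACTB-WT libraries. It was 41.5, 52.5 and 60.6 CPM in Actin KO, so the ACTB-WT libraries stood above the other 2 groups (log2 change -1.93 ± 0.18, adjusted p = 3.69e-05). PTP4A1, a phosphatase of the PRL family, fell by a log2 change of -1.47 ± 0.25 and SPINT1, an inhibitor of matriptase and HGF activator, by -1.22 ± 0.19. WLS, the carrier that brings Wnt ligands to the surface, had 12.1, 18.4 and 27.6 CPM in the ACTB-mut libraries, against 75.6, 66.1 and 50.01 CPM in the ACTB-WT libraries (log2 change -1.73 ± 0.33). PTP4A1 was not called without ACTB-mut replicate 1 (adjusted p = 0.0574), nor WLS without ACTB-mut replicates 1 or 2 or ACTB-WT replicates 1 or 2 (adjusted p 0.0651 to 0.0877).

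**Figure D2:**
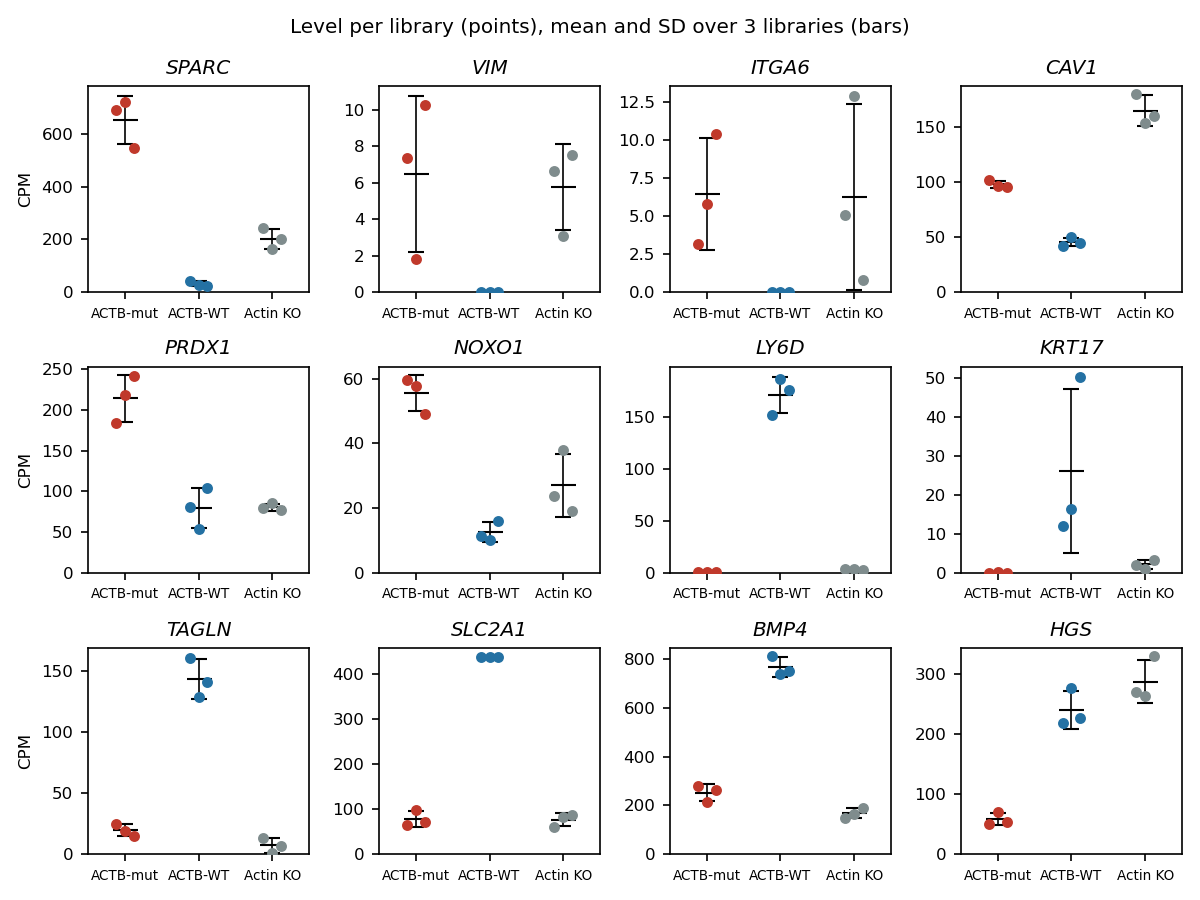
Level in CPM (linear axes from 0) of 12 genes in the 3 libraries of each group, with ACTB-mut red, ACTB-WT blue and Actin KO grey, and bars for the mean and SD. The ACTB-mut and ACTB-WT points do not overlap in any panel, and the Actin KO points lie near ACTB-mut for SLC2A1, VIM and LY6D and near ACTB-WT for HGS and PRDX1.

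Short motifs, 4 in all, were counted in the RefSeq promoter windows, from 250 bases before to 50 after each start, on both strands, where the table holds 62 of the genes called higher, 62 of those called lower and 9719 of all tested genes. The AP-1 motif TGANTCA stood in 12.9% of promoters of genes called higher, 6.45% of those called lower and 7.09% of all tested. The TEAD motif GGAATG stood in 11.3%, 14.5% and 14.7%. The E-box CACGTG stood in 9.68%, 14.5% and 12.7%, and the SRF CArG box in 1.61%, 1.61% and 1.53%. The single CArG boxes of called genes were in FLNA (lower) and NR2F1 (higher). These are counts of letters and no sites were measured.

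The gene lists used from here on were chosen with earlier results of these data known. Some genes stand in several lists, such as FLNA, SPARC and S100A4. The shares called are therefore given as description and are no test of a list. Genes of the actin cytoskeleton were lower where they were called, with 1 exception. Of 30 tested SRF-MRTF targets, 4 fell and none rose (13.3% against 0.605% of all tested genes called lower), with a median log2 change of -0.19 beside 0.02 over all tested genes. Without ACTB-WT replicate 2 the median was -0.06. TAGLN (transgelin, an actin-bundling protein of contractile cells) had 24.8, 19.2 and 15.1 CPM in the ACTB-mut libraries, against 161, 129 and 141 CPM in the ACTB-WT libraries, and 13.4, 1.10 and 6.73 CPM in Actin KO. The ACTB-WT libraries were high and those of the other 2 groups low (log2 change -2.86 ± 0.51, adjusted p = 0.0177). MYL9, a light chain of myosin II, had 104, 149 and 123 CPM in the ACTB-mut libraries, against 220.5, 187 and 215 CPM in the ACTB-WT libraries (log2 change -0.73 ± 0.15), and its Actin KO level of 134, 153 and 141 CPM was near ACTB-mut. MYH9, the heavy chain of myosin IIA, had 147, 177 and 162 CPM in the ACTB-mut libraries, against 289, 274 and 258 CPM in the ACTB-WT libraries (log2 change -0.76 ± 0.13). FLNA, the filamin that crosslinks actin filaments, had 448, 307 and 505 CPM in the ACTB-mut libraries, against 733, 630.2 and 699.7 CPM in the ACTB-WT libraries (log2 change -0.71 ± 0.15). For these 2 genes the low group was ACTB-mut, since Actin KO had 251, 316 and 249 CPM of MYH9 and 722, 741 and 838 CPM of FLNA.

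Of 53 actin assembly and crosslinking factors, 3 fell and 1 rose (7.55% called against 1.24% of all tested genes, median -0.11). EVL, an Ena/VASP protein that lengthens filaments at their tips, had 3.32, 5.09 and 2.79 CPM in the ACTB-mut libraries, against 20.7, 27.4 and 19.3 CPM in the ACTB-WT libraries. It was the largest of these falls, with a log2 change of -2.58 ± 0.39 (adjusted p = 0.00374). Against Actin KO, EVL was also called lower in ACTB-mut, a call that held in 12 of 19 other settings. FSCN1 (fascin, the bundler of filopodia) had 229.9, 268 and 239.6 CPM in the ACTB-mut libraries, against 449, 437 and 436 CPM in the ACTB-WT libraries, with the groups well apart (log2 change -0.84 ± 0.11, adjusted p = 0.00143), and FLNA was the other fall. EZR (ezrin, a linker of actin to the membrane) rose, with 974, 1074 and 990.1 CPM in the ACTB-mut libraries, against 545, 654 and 726 CPM in the ACTB-WT libraries (log2 change 0.66 ± 0.13). None of the 21 LIM-domain stress-fibre proteins (median 0.09), none of the 10 actin-modifying enzymes and none of the 3 tested actin isoforms was called.

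Several of these calls were fragile. That for TAGLN was lost without any 1 of the 6 libraries or Actin KO replicate 3 (adjusted p 0.0505 to 0.114), while its log2 change stayed between -3.07 and -2.71 over all settings. MYL9 was not called without ACTB-mut replicates 1 or 3 or ACTB-WT replicates 1, 2 or 3 (adjusted p 0.0603 to 0.142), FLNA not without ACTB-mut replicates 1 or 2, ACTB-WT replicates 1, 2 or 3 or Actin KO replicates 1 or 2 (adjusted p 0.0518 to 0.124), MYH9 not without ACTB-mut replicate 1 or ACTB-WT replicate 2 (adjusted p 0.0525 to 0.0624) and EZR not without ACTB-mut replicates 1, 2 or 3 or ACTB-WT replicates 1 or 2 (adjusted p 0.0675 to 0.108). MYL9, MYH9 and FLNA also lost their calls with offsets for GC content and length, where the highest adjusted p of FLNA was 0.246. EVL and FSCN1 were called in each of the 20 other settings.

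Among adhesion genes ITGA6, TNS4, CAV1, CAV2 and LGALS1 rose, and FLNA and LY6D fell. Of 14 integrin chains ITGA6 was called (7.14% against 1.24% of all tested genes), and none of 35 cell-cell junction genes was (median -0.05). Of 48 focal adhesion components 3 rose, namely TNS4, CAV1 and CAV2, and FLNA fell (8.33% called, median -0.07). Of 25 surface adhesion molecules LGALS1 rose, a galectin that binds matrix glycans, with 1211, 1216 and 1307 CPM in the ACTB-mut libraries, against 924, 936 and 972 CPM in the ACTB-WT libraries (log2 change 0.40 ± 0.09), and LY6D fell (8.0% called). The call for LGALS1 was lost without ACTB-mut replicates 1, 2 or 3, ACTB-WT replicates 1, 2 or 3 or Actin KO replicates 1, 2 or 3 (adjusted p 0.0573 to 0.135).

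Genes of caveolae, the flask-shaped membrane pits that buffer tension, were higher where they were called. Of 6 tested caveolins and cavins 3 rose and none fell (0.634% of all tested genes were called higher), with a median log2 change of 0.66. CAV1 had 102, 96.1 and 95.4 CPM in the ACTB-mut libraries, against 42.1, 49.5 and 44.3 CPM in the ACTB-WT libraries, a log2 change of 1.11 ± 0.15 (adjusted p = 0.00210). CAV2 had 112, 86.7 and 113 CPM in the ACTB-mut libraries, against 35, 51.5 and 54.2 CPM in the ACTB-WT libraries (log2 change 1.15 ± 0.20) and CAVIN3 80.9, 73.5 and 96.2 CPM in the ACTB-mut libraries, against 31.4, 31.3 and 36.2 CPM in the ACTB-WT libraries (log2 change 1.34 ± 0.19). In all 3 genes each ACTB-mut library was above each ACTB-WT library. The Actin KO libraries were higher than both for CAV1 (180.1, 154 and 160.2 CPM) and CAV2 (148, 196 and 148 CPM), but lay between the 2 groups for CAVIN3 (53.1, 59.3 and 64.1 CPM). CAV1 and CAV2 are neighbours on chromosome 7, and CAVIN3 lies on chromosome 11.

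Of 29 matrix and basement membrane genes SPARC rose and 2 fell (10.3% called against 1.24% of all tested genes, median -0.05). LAMA5, the laminin alpha chain of epithelial basement membrane, had 2.54, 3.19 and 5.07 CPM in the ACTB-mut libraries, against 14.9, 20.4 and 13.8 CPM in the ACTB-WT libraries (log2 change -2.19 ± 0.44). COL18A1, a basement membrane collagen, had 10.8, 9.68 and 13.3 CPM in the ACTB-mut libraries, against 25.1, 45.01 and 22.8 CPM in the ACTB-WT libraries (log2 change -1.46 ± 0.34). LAMA5 was not called without ACTB-mut replicates 1 or 2 or ACTB-WT replicates 1 or 2 (adjusted p 0.0558 to 0.123), nor COL18A1 without ACTB-mut replicates 1, 2 or 3, ACTB-WT replicates 1 or 2 or Actin KO replicates 1, 2 or 3 (adjusted p 0.0648 to 0.244). Among 13 mesenchymal genes of the epithelial-mesenchymal transition 4 rose and none fell (30.8% against 0.634% of all tested genes called higher, median 0.69), namely SPARC, VIM, S100A4 and GNG11. S100A4, a calcium-binding protein of motile cells, had 363, 484 and 451 CPM in the ACTB-mut libraries, against 231, 321 and 252 CPM in the ACTB-WT libraries (log2 change 0.69 ± 0.15). GNG11, a G protein gamma subunit, had 9.36, 6.09 and 6.85 CPM in the ACTB-mut libraries, against 0, 0 and 1.05 CPM in the ACTB-WT libraries (log2 change 4.40 ± 0.84), below its Actin KO level of 22.4, 14.7 and 20.5 CPM. S100A4 was not called without ACTB-mut replicates 2 or 3, ACTB-WT replicates 1 or 3 or Actin KO replicates 1 or 3 (adjusted p 0.0536 to 0.191), nor GNG11 without ACTB-mut replicate 1 or ACTB-WT replicates 1 or 2 (adjusted p 0.0572 to 0.0624). Among 14 keratins KRT13 and KRT17 fell and none rose (14.3% against 0.605% of all tested genes called lower), with a median of -0.72. This median moved to -0.39 without ACTB-WT replicate 3. Of 19 S100 proteins and annexins, S100A4, ANXA2 and ANXA3 rose and ANXA10 fell (21.1% called against 1.24% of all tested genes, median 0.12). ANXA2, a membrane- and actin-binding annexin, had 583, 688 and 695 CPM in the ACTB-mut libraries, against 322, 378 and 456 CPM in the ACTB-WT libraries and ANXA3 48.1, 27.2 and 44.6 CPM in the ACTB-mut libraries, against 14.1, 8.20 and 9.06 CPM in the ACTB-WT libraries. Neither pair of groups overlapped, but ANXA2 was not called without ACTB-mut replicates 2 or 3 or ACTB-WT replicates 1 or 2 (adjusted p 0.0708 to 0.103), nor ANXA3 without ACTB-mut replicates 1 or 3 or ACTB-WT replicate 2 (adjusted p 0.0642 to 0.0762).

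**Figure D3:**
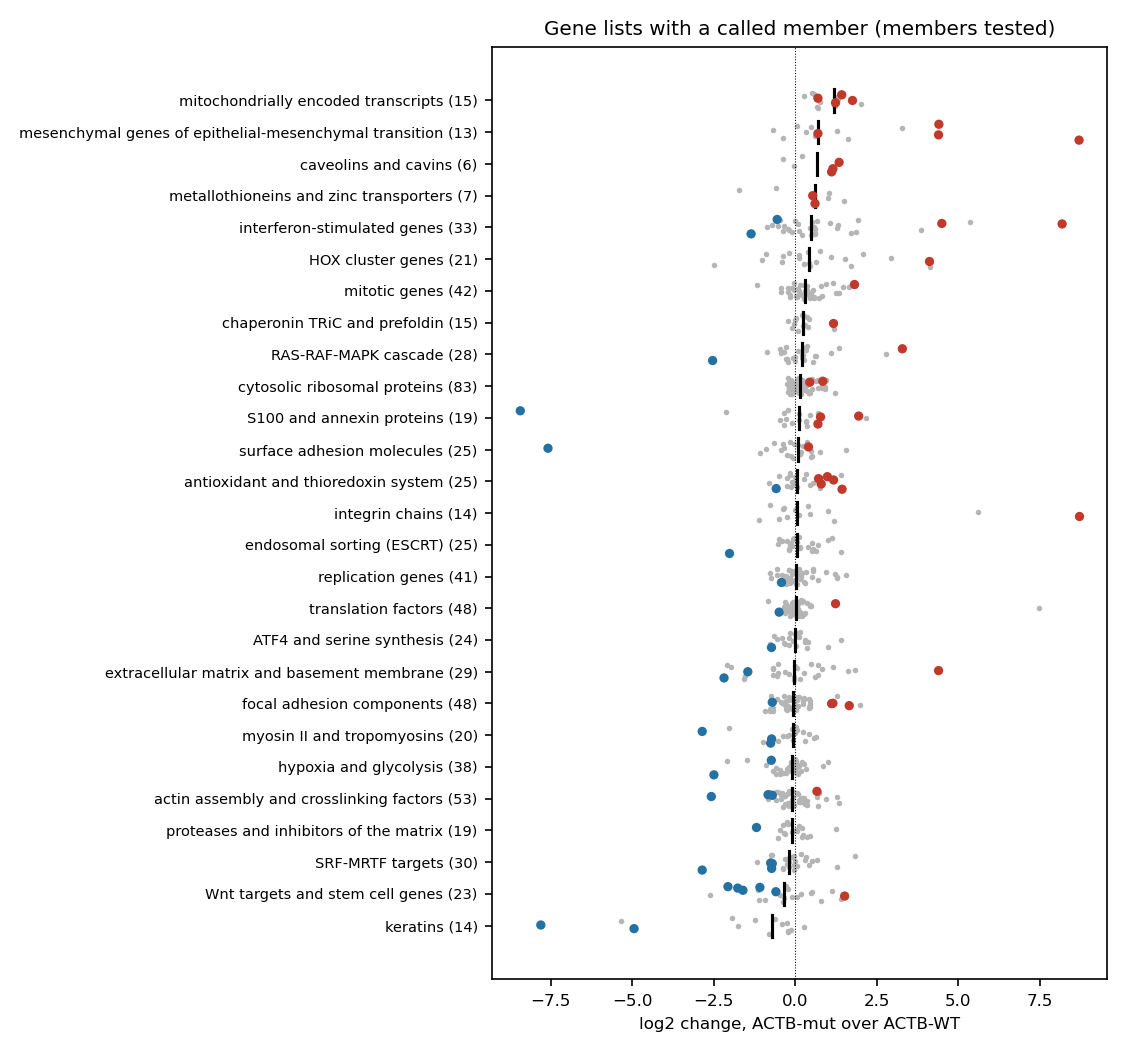
Log2 change, ACTB-mut over ACTB-WT, of the tested members of each list that has at least 1 called member, with the number tested in brackets. Red points were called higher, blue points lower, grey points not called, and the black bar is the list's median, which is highest for mitochondrially encoded transcripts (1.18) and lowest for keratins (-0.72).

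Of 23 genes on the Wnt target and stem cell list, 5 fell and 1 rose (26.1% against 1.24% of all tested genes), with a median of -0.34. The 5 that fell are known mainly as members or targets of BMP signalling or as Wnt inhibitors, and the list was named for Wnt. No list of BMP targets was counted. BMP4, the ligand, had 279, 214 and 264 CPM in the ACTB-mut libraries, against 814, 739 and 754 CPM in the ACTB-WT libraries (log2 change -1.61 ± 0.13, adjusted p = 9.02e-06). The Actin KO libraries had 149, 166 and 191 CPM, below both add-back groups, with a log2 change over Actin KO of 0.58 ± 0.13 in ACTB-mut (adjusted p = 0.0486) and of 2.19 ± 0.14 in ACTB-WT (adjusted p = 3.82e-07). The call of ACTB-mut over Actin KO was lost in 14 of 19 other settings, with adjusted p up to 0.206. ID3, a helix-loop-helix inhibitor and BMP target, had 188, 249 and 221 CPM in the ACTB-mut libraries, against 461, 467 and 475 CPM in the ACTB-WT libraries and 198, 178 and 215 CPM in Actin KO (log2 change -1.09 ± 0.13, adjusted p = 0.000490). ID2 had 12.3, 13.7 and 9.89 CPM in the ACTB-mut libraries, against 35.99, 32.1 and 55.1 CPM in the ACTB-WT libraries (log2 change -1.77 ± 0.33), and SMAD6, the inhibitory SMAD induced by BMP, 9.01, 2.20 and 4.82 CPM in the ACTB-mut libraries, against 21.7, 17.7 and 28.2 CPM in the ACTB-WT libraries (log2 change -2.07 ± 0.48). DKK1, a secreted Wnt inhibitor, had 575, 554 and 578 CPM in the ACTB-mut libraries, against 885, 851 and 856 CPM in the ACTB-WT libraries, all ACTB-mut values being below all ACTB-WT values (log2 change -0.60 ± 0.09, adjusted p = 0.00534). SOX9, a transcription factor of crypt cells, rose, with 29.5, 31.4 and 36.1 CPM in the ACTB-mut libraries, against 11.7, 10.8 and 11.5 CPM in the ACTB-WT libraries (log2 change 1.51 ± 0.27) and 28.1, 32.2 and 36.1 CPM in Actin KO. The call for ID2 was lost without ACTB-mut replicates 1 or 3 or ACTB-WT replicate 3 (adjusted p 0.0624 to 0.0717), that for SMAD6 without ACTB-mut replicates 2 or 3, ACTB-WT replicates 1, 2 or 3 or Actin KO replicates 1, 2 or 3 (adjusted p 0.0648 to 0.151) and that for SOX9 without ACTB-mut replicate 3 or ACTB-WT replicate 2 (adjusted p 0.0526 to 0.0558).

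Of 28 genes of the RAS-RAF-MAPK cascade 1 rose and 1 fell (7.14% against 1.24% of all tested genes), with a median of 0.20 that was 0.01 without ACTB-mut replicate 3. ARAF, a RAF kinase, had 6.56, 1.40 and 3.42 CPM in the ACTB-mut libraries, against 25.2, 25.9 and 15.9 CPM in the ACTB-WT libraries and 27.6, 36.6 and 30.9 CPM in Actin KO, so it was low in ACTB-mut alone (log2 change -2.54 ± 0.46). EREG (epiregulin, an EGF receptor ligand) had 16.97, 19.2 and 12.7 CPM in the ACTB-mut libraries, against 3.98, 0.537 and 0.697 CPM in the ACTB-WT libraries (log2 change 3.28 ± 0.62), with 15.9, 19.9 and 14.4 CPM in Actin KO. ARAF was not called without ACTB-mut replicate 3 or ACTB-WT replicate 2 (adjusted p 0.0558 to 0.0642), nor EREG without ACTB-mut replicates 1 or 2 or ACTB-WT replicates 2 or 3 (adjusted p 0.0539 to 0.0630).

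The title of the series names translation and SMARCA4. Calls were few in the lists for both, as among all tested genes (1.24%), so their number says little about either theme. Of 83 cytosolic ribosomal protein genes, RPL27 and RPL31 rose and none fell (2.41% against 0.634% of all tested genes called higher). Their median log2 change of 0.14 became 0.03 with offsets for GC content and length. RPL31 had 1380, 1423 and 1404 CPM in the ACTB-mut libraries, against 651, 743 and 948 CPM in the ACTB-WT libraries (log2 change 0.84 ± 0.17), and RPL27 1338, 1326 and 1325 CPM in the ACTB-mut libraries, against 944, 992 and 995 CPM in the ACTB-WT libraries (log2 change 0.44 ± 0.09). Of 48 translation factors EEF1A1, which brings tRNA to the ribosome, rose, with 2911, 3251 and 3725 CPM in the ACTB-mut libraries, against 1407, 1073 and 1750 CPM in the ACTB-WT libraries (log2 change 1.23 ± 0.21). EIF3C, an initiation factor subunit, fell, with 808, 779.7 and 754 CPM in the ACTB-mut libraries, against 1199, 1124 and 993 CPM in the ACTB-WT libraries (log2 change -0.50 ± 0.11), so that 4.17% of the list was called. EEF1A1 has many processed copies and EIF3C has a near-identical copy, EIF3CL, which was called lower as well, so their read assignment is uncertain. None of 54 ribosome biogenesis factors (median -0.06), 23 tRNA synthetases (median 0.11) or 77 mitochondrial ribosomal proteins (median 0.11) was called. None of 27 BAF complex genes was called either, with a median of -0.28 that became -0.12 with the offsets. Of 15 subunits of the chaperonin TRiC, which folds actin, and of prefoldin, CCT8 rose, with 91.8, 93.5 and 93.9 CPM in the ACTB-mut libraries, against 37.98, 40.9 and 45.8 CPM in the ACTB-WT libraries (log2 change 1.16 ± 0.17, adjusted p = 0.00287). Without single libraries the calls were lost for RPL31 (ACTB-mut replicates 1, 2 or 3 or ACTB-WT replicates 1 or 2 (adjusted p 0.0632 to 0.106)), RPL27 (ACTB-mut replicates 1, 2 or 3, ACTB-WT replicates 1, 2 or 3 or Actin KO replicate 2 (adjusted p 0.0518 to 0.121)), EEF1A1 (ACTB-mut replicates 2 or 3 or ACTB-WT replicate 1 (adjusted p 0.0648 to 0.0725)), EIF3C (ACTB-mut replicates 1, 2 or 3, ACTB-WT replicates 1 or 2 or Actin KO replicate 1 (adjusted p 0.0581 to 0.158)) and EIF3CL (ACTB-mut replicates 1 or 3, ACTB-WT replicates 1, 2 or 3 or Actin KO replicates 1, 2 or 3 (adjusted p 0.0549 to 0.172)).

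Antioxidant enzymes rose in part. Of 25 genes of the antioxidant and thioredoxin system 5 rose and 1 fell (24% against 1.24% of all tested genes), while the median of the list was 0.06. PRDX1, a cytosolic peroxiredoxin that reduces hydrogen peroxide, had 184, 218 and 242 CPM in the ACTB-mut libraries, against 81.1, 54.4 and 104 CPM in the ACTB-WT libraries. Its Actin KO level of 79.2, 85.6 and 77.5 CPM was like that of ACTB-WT, so ACTB-mut was the group that stood apart (log2 change 1.43 ± 0.20 against ACTB-WT, adjusted p = 0.00282, and 1.41 ± 0.20 against Actin KO, adjusted p = 0.00333). TXNRD1, the cytosolic thioredoxin reductase, had 444, 382 and 364 CPM in the ACTB-mut libraries, against 226, 240.0 and 223 CPM in the ACTB-WT libraries (log2 change 0.79 ± 0.13, adjusted p = 0.00780). NQO1, a quinone reductase, had 258, 328 and 317 CPM in the ACTB-mut libraries, against 177, 199.7 and 176 CPM in the ACTB-WT libraries (log2 change 0.71 ± 0.14), and GCLM, a subunit of the enzyme that starts glutathione synthesis, 104, 54.8 and 76.1 CPM in the ACTB-mut libraries, against 30.4, 37.5 and 36.2 CPM in the ACTB-WT libraries (log2 change 1.17 ± 0.24). TXNRD1, NQO1 and GCLM are known targets of the transcription factor NRF2. SOD1, the cytosolic superoxide dismutase, had 678, 779.7 and 652 CPM in the ACTB-mut libraries, against 346, 383 and 342 CPM in the ACTB-WT libraries (log2 change 0.98 ± 0.11, adjusted p = 0.000404), and PRDX2, another peroxiredoxin, fell, with 402, 489 and 453 CPM in the ACTB-mut libraries, against 618, 731 and 668 CPM in the ACTB-WT libraries (log2 change -0.59 ± 0.12). NQO1 was not called without ACTB-mut replicates 2 or 3 or ACTB-WT replicates 1, 2 or 3 (adjusted p 0.0570 to 0.0959), GCLM not without ACTB-mut replicates 1 or 3 or ACTB-WT replicates 1, 2 or 3 (adjusted p 0.0563 to 0.147) and PRDX2 not without ACTB-mut replicates 1 or 3 or ACTB-WT replicates 2 or 3 (adjusted p 0.0505 to 0.119).

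Of 7 tested metallothioneins and zinc transporters, MT2A and MT1E rose and none fell (28.6% against 0.634% of all tested genes called higher, median 0.60). MT2A had 2366, 2721 and 2184 CPM in the ACTB-mut libraries, against 1687, 1747 and 1595 CPM in the ACTB-WT libraries (log2 change 0.53 ± 0.09, adjusted p = 0.0101). MT1E had 1483, 1560 and 1239 CPM in the ACTB-mut libraries, against 899.6, 1064 and 852 CPM in the ACTB-WT libraries (log2 change 0.60 ± 0.12). Metallothionein genes are near copies of each other, so reads could be split between them. Among 38 hypoxia and glycolysis genes SLC2A1 and DDIT4 fell and none rose (5.26% against 0.605% of all tested genes called lower, median -0.10). DDIT4, a stress-induced inhibitor of mTORC1, had 83.8, 107 and 90.95 CPM in the ACTB-mut libraries, against 173, 165 and 132 CPM in the ACTB-WT libraries (log2 change -0.74 ± 0.16). MT1E was not called without ACTB-mut replicates 1 or 2 or ACTB-WT replicates 1 or 3 (adjusted p 0.0661 to 0.0870), nor DDIT4 without ACTB-mut replicates 1 or 3, ACTB-WT replicates 1 or 2 or Actin KO replicate 1 (adjusted p 0.0503 to 0.152).

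All 15 mitochondrially encoded transcripts had a positive log2 change, with a median of 1.18, and 4 were called higher (26.7% against 0.634% of all tested genes). The libraries of the 2 groups did not overlap for 7 of the 15, against 18.1% of all tested genes. MT-CO1, a subunit of cytochrome c oxidase, had 739, 819.6 and 1382 CPM in the ACTB-mut libraries, against 239, 262 and 372 CPM in the ACTB-WT libraries (log2 change 1.75 ± 0.25, adjusted p = 0.00402). MT-CYB (cytochrome b) had 113, 108 and 195 CPM in the ACTB-mut libraries, against 56.9, 42.9 and 55.6 CPM in the ACTB-WT libraries (log2 change 1.42 ± 0.23), and MT-ND5, a complex I subunit, 259, 237 and 479 CPM in the ACTB-mut libraries, against 151, 129.8 and 135 CPM in the ACTB-WT libraries (log2 change 1.23 ± 0.21). MT-CO3 had 4719, 4942 and 6879 CPM in the ACTB-mut libraries, against 3509, 3287 and 3478 CPM in the ACTB-WT libraries (log2 change 0.69 ± 0.13). In these 4 genes ACTB-mut replicate 3 was the highest of the 6 libraries, and the groups did not overlap. Without ACTB-mut replicate 3 the median over the 15 was 0.49, and with offsets for GC content and length 0.80. MT-ND5 was not called without ACTB-WT replicate 2 (adjusted p = 0.0558), nor MT-CO3 without ACTB-mut replicate 3 or ACTB-WT replicates 1, 2 or 3 (adjusted p 0.0505 to 0.0841). None of the 63 listed nuclear genes of oxidative phosphorylation was called (median 0.04). ATP5PF, a nuclear-encoded subunit of ATP synthase, was not on that list and was called higher (log2 change 1.03), as given below with chromosome 21. The share of mitochondrial transcripts is also used as a measure of RNA quality, and its part in these differences was not tested.

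**Figure D4:**
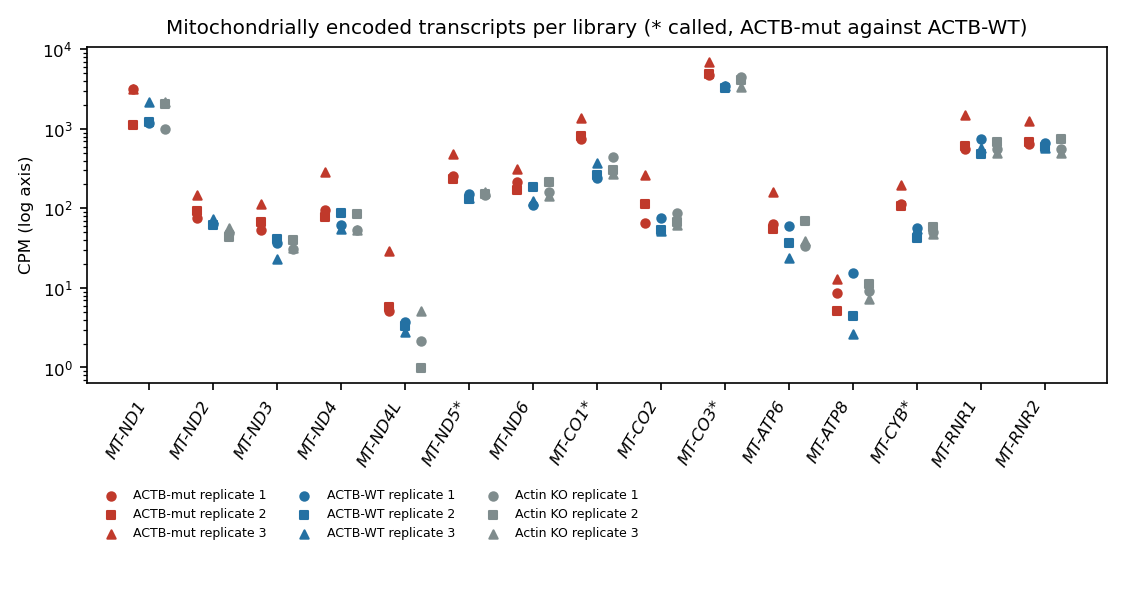
Level in CPM (log axis) of the 15 mitochondrially encoded transcripts in each library, with ACTB-mut red, ACTB-WT blue and Actin KO grey and a marker shape for each replicate number. The 4 called transcripts carry an asterisk, and ACTB-mut replicate 3 (red triangles) is the highest ACTB-mut library for all but MT-ND1.

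Of 33 tested interferon-stimulated genes 2 rose and 2 fell (12.1% against 1.24% of all tested genes), with a median of 0.49 that was 0.26 without ACTB-mut replicate 2. PARP9, a member of the PARP family, had 3.67, 3.39 and 6.47 CPM in ACTB-mut and no count in ACTB-WT, at least 26.3-fold higher. PARP10, a mono-ADP-ribosyltransferase, had 8.05, 3.99 and 6.72 CPM in the ACTB-mut libraries, against 0, 0.403 and 0.348 CPM in the ACTB-WT libraries (log2 change 4.49 ± 0.88). LGALS3BP, a secreted galectin-binding protein, had 464, 473 and 492 CPM in the ACTB-mut libraries, against 803, 703 and 596 CPM in the ACTB-WT libraries (log2 change -0.56 ± 0.12), and IFI27 7.08, 4.29 and 7.48 CPM in the ACTB-mut libraries, against 20.9, 13.2 and 14.6 CPM in the ACTB-WT libraries (log2 change -1.36 ± 0.31). IFI27 stood at 56.5, 49.7 and 48.4 CPM in Actin KO, above both groups. The calls were lost for PARP9 without ACTB-mut replicates 1 or 3 or ACTB-WT replicates 1, 2 or 3 (adjusted p 0.0545 to 0.0841), for PARP10 without ACTB-mut replicates 1 or 3 or ACTB-WT replicates 1 or 2 (adjusted p 0.0506 to 0.0895), for LGALS3BP without ACTB-mut replicates 1, 2 or 3, ACTB-WT replicates 1 or 2 or Actin KO replicates 1 or 2 (adjusted p 0.0548 to 0.173) and for IFI27 without ACTB-mut replicates 1, 2 or 3, ACTB-WT replicates 1, 2 or 3 or Actin KO replicates 1, 2 or 3 (adjusted p 0.0717 to 0.179).

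HOXB4, a homeobox transcription factor, was the called gene of 21 HOX genes (4.76% against 1.24% of all tested genes). It had 10.8, 8.69 and 11.3 CPM in the ACTB-mut libraries, against 0.199, 0.806 and 0.697 CPM in the ACTB-WT libraries (log2 change 4.09 ± 0.63, adjusted p = 0.00402). Of 42 mitotic genes PTTG1 (securin) rose (2.38% called), with a list median of 0.31. Of 41 replication genes MCM7, a helicase subunit, fell (2.44% called), with a median of 0.02. PTTG1 had 21.4, 16.2 and 27.3 CPM in the ACTB-mut libraries, against 7.56, 3.90 and 7.32 CPM in the ACTB-WT libraries and MCM7 671, 675 and 705 CPM in the ACTB-mut libraries, against 902, 917 and 942 CPM in the ACTB-WT libraries. Both calls were lost on leaving out single libraries, PTTG1 without ACTB-mut replicates 1, 2 or 3, ACTB-WT replicates 1, 2 or 3 or Actin KO replicates 1, 2 or 3 (adjusted p 0.0545 to 0.153) and MCM7 without ACTB-mut replicates 1, 2 or 3, ACTB-WT replicates 1, 2 or 3 or Actin KO replicates 1 or 2 (adjusted p 0.0518 to 0.123). No member was called among 21 immediate early and AP-1 genes (median -0.24), 20 YAP-TAZ targets (-0.02), 15 genes of MHC class I presentation (0.16), 27 p53 targets (0.12) or 18 replication-dependent histones (-0.18). The same held for 22 endoplasmic reticulum chaperones, 25 genes of cholesterol synthesis, 16 of the nuclear lamina and 6 of intestinal differentiation. With 1.24% of all tested genes called, 1 call or none in lists of these sizes says little about them.

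A further set of genes outside the lists was called in every setting tried, and was chosen after its values were seen. CALB2 (calretinin, a calcium-binding protein) had 49.2, 56.7 and 40.7 CPM in the ACTB-mut libraries, against 6.76, 9.00 and 5.92 CPM in the ACTB-WT libraries (log2 change 2.75 ± 0.29, adjusted p = 0.000211). TNFRSF6B, a decoy receptor for FAS ligand, had 41.6, 49.8 and 57.7 CPM in the ACTB-mut libraries, against 12.7, 13.2 and 10.5 CPM in the ACTB-WT libraries (log2 change 2.03 ± 0.31). The groups were far apart for both genes. ALDH1A3, a retinaldehyde dehydrogenase, had 81.2, 83.3 and 75.6 CPM in the ACTB-mut libraries, against 37.8, 32.2 and 39.9 CPM in the ACTB-WT libraries (log2 change 1.13 ± 0.16), both groups being below the 148, 150.4 and 132 CPM of Actin KO. SQSTM1 (p62, an autophagy receptor and NRF2 target) had 1056, 911 and 848 CPM in the ACTB-mut libraries, against 580.4, 631 and 577 CPM in the ACTB-WT libraries (log2 change 0.65 ± 0.11), and BLVRB, a biliverdin reductase, 424, 424 and 528 CPM in the ACTB-mut libraries, against 266, 260.3 and 235 CPM in the ACTB-WT libraries (log2 change 0.85 ± 0.13). TINAGL1 and SYTL3 also rose in every setting, as did SOD1 of the antioxidant list, and CDR2L, RHBDD2 and SAMD1 fell in every setting. With these, 36 of the 172 called genes passed in all 20 other settings.

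Genes of chromosome 21 differed by position. This was noticed in the values and is given as a description with no test. The 24 protein-coding genes with a mean of at least 20 CPM from BTG3 to HMGN1 (GRCh38 chr21:17593653-39349647) had a median log2 change of 0.64, and 23 of the 24 were positive. The exception was SMIM11A. The libraries did not overlap for 17 of the 24, against 18.1% of all tested genes. Called higher were SOD1, CCT8, ATP5PF (a subunit of ATP synthase) and GART (an enzyme of purine synthesis). ATP5PF had 118, 140.5 and 131 CPM in the ACTB-mut libraries, against 59.1, 71.1 and 60.5 CPM in the ACTB-WT libraries (log2 change 1.03 ± 0.16, adjusted p = 0.00395), and GART 86.1, 73.3 and 65.3 CPM in the ACTB-mut libraries, against 40.4, 25.3 and 43.9 CPM in the ACTB-WT libraries (log2 change 1.04 ± 0.23), though GART was not called without ACTB-mut replicates 1, 2 or 3, ACTB-WT replicates 1 or 2 or Actin KO replicates 1, 2 or 3 (adjusted p 0.0549 to 0.188). The summed level of the 24 was 2711, 2702 and 2490 CPM in the ACTB-mut libraries, 1641, 1729 and 1718 CPM in the ACTB-WT libraries and 2451, 2381 and 2414 CPM in the Actin KO libraries. ACTB-WT was thus the low group, with a median log2 change of -0.61 against Actin KO, where ACTB-mut had 0.10.

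The 25 genes farther along the chromosome, from BACE2 to PRMT2, had a median of -0.22 and a single call, COL18A1. Their medians against Actin KO were -0.67 in ACTB-mut and -0.39 in ACTB-WT. The median of the genes from BTG3 to HMGN1 lay between 0.55 and 0.70 in all other settings, 0.56 with the offsets among them. Medians of the other autosomes lay between -0.12 and 0.08. SOD1 and CCT8, given above with the antioxidant genes and the chaperonin, lie in this stretch. RNA counts do not measure DNA copy number. Its part in these differences, and in the calls for SOD1, CCT8, ATP5PF and GART, was not tested.

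**Figure D5:**
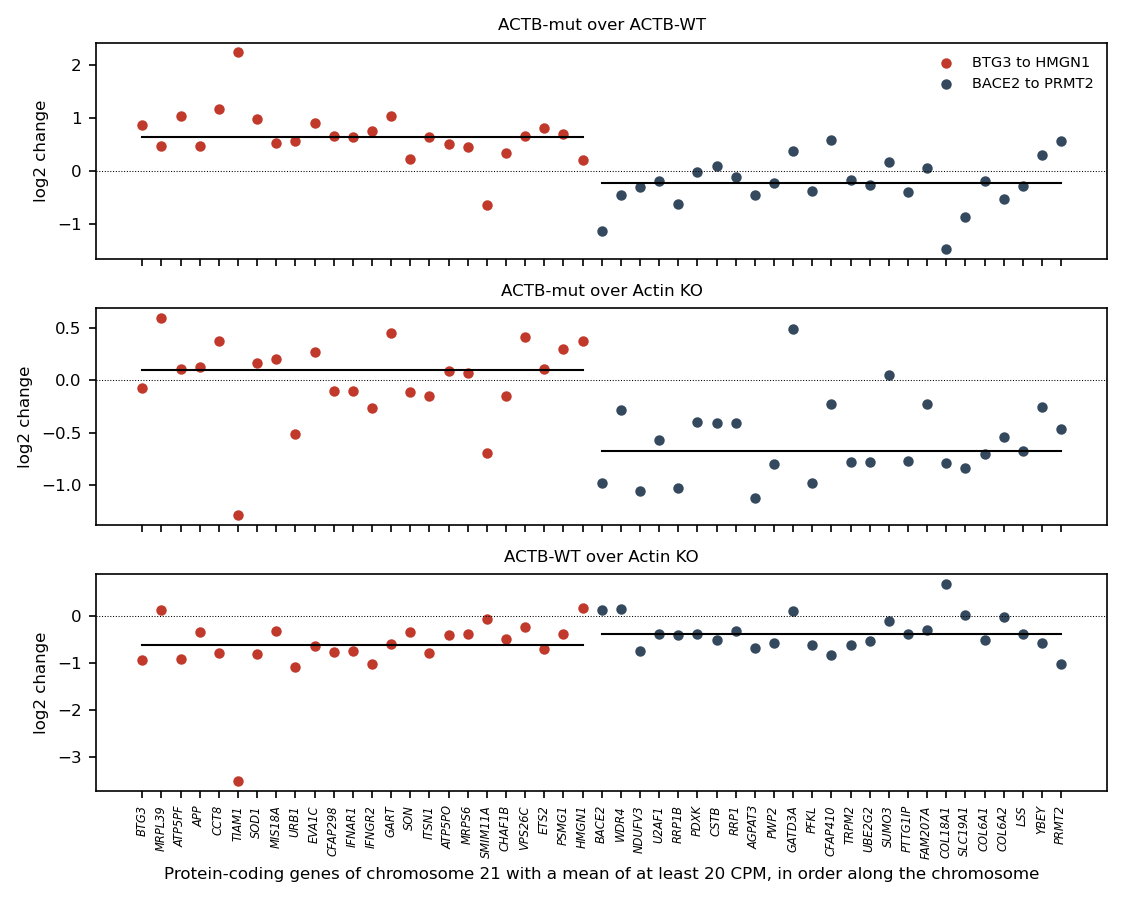
Log2 change of protein-coding genes of chromosome 21 with a mean of at least 20 CPM, from BTG3 to PRMT2 in their order along the chromosome. The chromosome has 52 such genes, and those that start before BTG3 are not shown. Panels give ACTB-mut over ACTB-WT (top), ACTB-mut over Actin KO (middle) and ACTB-WT over Actin KO (bottom), with bars for the medians. From BTG3 to HMGN1 (red) the medians are 0.64, 0.10 and -0.61, and from BACE2 to PRMT2 (dark) they are -0.22, -0.67 and -0.39.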

How the data were processed

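The members and gene lists were chosen with earlier results of these data known. The authors deposited RSEM expected counts per gene, with no normalisation. Per the submitters' processing notes, Trim Galore 0.4.5, cutadapt 1.15, RSEM 1.2.28 and Bowtie2 were used with GRCh38. Annotation release and strand setting are not given in the sources used here, so reads of overlapping or antisense genes may be shared. The table had 60683 gene rows, 36029 of them without a count, and 83.4% of values were whole within 0.005. Expected counts were rounded to whole numbers. All 9 ACTB-table libraries were fitted together in edgeR 4.0.16 (R 4.3.3) with filterByExpr, TMM scaling and robust quasi-likelihood tests, two-sided, adjusted by Benjamini-Hochberg over 13882 genes. Standard errors (SE) are the absolute log2 change divided by the square root of F. Levels in CPM of the SETD3 table were scaled within that table.

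Genes were named by a rule: the 8 largest rises and falls among called genes of at least 5 CPM in the higher group, the 10 largest of at least 50 CPM, 4 genes of the study's theme, and up to 6 called genes a list. A gene that the rule named is not reported here. A floor of 3 counts over a group bounds folds against 0. Alternatives were RLE and upper-quartile scaling, other filters, DESeq2 1.42.0, voom in limma 3.58.1, 6 libraries only, thinning, offsets for GC content and length (13745 of 13882 genes had values, from GENCODE release 29), a replicate block and each library left out. Replicates of a group differed by 14.7 to 28.3 in chi-square per degree of freedom, far beyond counting noise. SETD3 knockout libraries were not used in tests. With 3 libraries against 3, precision is limited below 5 CPM.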

Additional observations from a re-analysis of the deposited data

How the results depend on the processing

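The 172 called genes became 402 (204 higher, 198 lower) without a filter on low counts, 446 (198 higher, 248 lower) with DESeq2, 104 (54 and 50) with the 6 libraries alone and 60 to 129 with 1 of the 6 libraries left out. RLE scaling gave 177, upper-quartile scaling 168, a filter at 1 CPM 168, thinning to the smallest library 191, limma-voom 155 (64 higher, 91 lower, against 88 and 84) and offsets for GC content and length 125 (76 and 49). The fits without an Actin KO replicate, chosen after seeing the data like the alternatives for chromosome 21 and for Actin KO, gave 123 to 145. The replicate block gave 83, and 69 together with the offsets. Same-numbered libraries of the 2 groups deviated with correlations of -0.127 to -0.043, and differently numbered ones with -0.004 to 0.098. Between Actin KO and ACTB-mut, same-numbered libraries had 0.052, 0.123 and 0.152, and differently numbered ones -0.115 to -0.015. Between Actin KO and ACTB-WT the ranges were -0.152 to -0.001 and -0.09 to 0.169. With 3 libraries a group, these values cannot decide whether the replicate numbers are a pairing. No named gene reversed. Among the named genes, limma-voom did not call VIM (adjusted p = 0.18), ITGA6 (0.232), KRT17 (0.0979), LPAR1 (0.373), PEG10 (0.236), PARP10 (0.212), PARP9 (0.139), GNG11 (0.144), APOBEC3G (0.105), RPS3AP6 (0.14), HOXB4 (0.115), IFI27 (0.177), PTTG1 (0.0969), LAMA5 (0.0538), COL18A1 (0.0526), EREG (0.0560), GCLM (0.0592) or NR2F1 (0.0606). Medians of lists also moved with single libraries left out, to -0.02 for actin assembly factors (without ACTB-mut replicate 2), 0.24 for S100 and annexin proteins (ACTB-mut replicate 3), 0.24 for the antioxidant list (ACTB-WT replicate 1), 0.16 for mitotic genes (ACTB-mut replicate 1) and -0.08 for immediate early genes (ACTB-WT replicate 2). The cause of these changes was not tested.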

Other observations

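On the short arm of chromosome 7, 19 protein-coding genes with a mean of at least 20 CPM lie from FAM20C to FBXL18, the last such gene before ACTB. Their median log2 change was -0.17 (ACTB-mut over ACTB-WT), and -0.05 with offsets for GC content and length. Of the 19, 3 had a positive log2 change and none was called. Against Actin KO their medians were 0.73 in ACTB-mut and 0.97 in ACTB-WT, with summed levels of 1461 to 1817 CPM in ACTB-mut, 1887 to 2204 CPM in ACTB-WT and 1075 to 1161 CPM in Actin KO. This was noticed in the values and was not tested, and DNA copy number was not measured.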
